A study of Homo sapiens with 19 samples.

Results

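The cytochrome P450 family 4 (CYP4) genes CYP4F2, CYP4F3, CYP4F11, CYP4F12, CYP4A11, CYP4A22 and CYP4V2 were followed across 19 expression arrays of HepG2 cells in which YAP, TAZ or both had been knocked down. These 7 genes are 7 of 15 CYP4 family genes and pseudogenes on the array and 7 of 25579 genes tested. They were chosen by name, with earlier values of these arrays known, and which values led to the choice is not recorded. Their differences from control are therefore given as a description. The member counts that follow support nothing about the family.

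CYP4 enzymes are haem monooxygenases of the endoplasmic reticulum membrane that place a hydroxyl group on the last (omega) carbon of a fatty acid. Alcohol and aldehyde dehydrogenases then turn the product into a dicarboxylic acid, which peroxisomes shorten. In liver the pathway takes up fatty acids that escape mitochondrial oxidation, and the same enzymes inactivate leukotrienes, make the vasoactive omega-hydroxylated form of arachidonic acid and start the breakdown of vitamins E and K. YAP and TAZ are co-activators held back by the Hippo kinase cascade. In the nucleus they act mainly through TEAD transcription factors.

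HepG2 is an established human liver cancer line, grown here in RPMI medium with fetal calf serum. All groups received siRNA, short double-stranded RNA through which cells destroy mRNA of the same sequence, with the lipid reagent Oligofectamine, and RNA was collected 24 h later. The groups were a nonsense siRNA control (n = 3), siYAP1 and siYAP2, which are different siRNAs against YAP1 (n = 3 each), siTAZ2 (n = 3) and siTAZ3 (n = 2), which are different siRNAs against the TAZ gene WWTR1, and the pairs siTAZ2_siYAP1 (n = 3) and siTAZ3_siYAP2 (n = 2). Each siRNA was used at 20 nM, so that the pairs held 40 nM in total, while the control dose can be read from the labels as either of these. The arrays of control, siYAP1 and siYAP2 had been deposited once before (earlier deposit), and those with a TAZ siRNA had not (later deposit). Deposit and siRNA therefore cannot be told apart where groups of the later deposit are compared with groups of the earlier one. Since the labels do not state whether replicates are separate cultures, p-values reflect the spread of these samples alone, which may be technical.

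Both targets were low where they had been targeted: YAP1 was left at 15.1% to 23.4% of control and WWTR1 at 10.5% to 19.7%. In limma YAP1 was 0.42 log2 units higher with siTAZ2_siYAP1 than with siYAP1 (adjusted p = 0.0113). It was 0.61 higher with siTAZ3_siYAP2 than with siYAP2 (adjusted p = 0.00295). Both contrasts set the later deposit against the earlier one. YAP1 was at 84.7% of control with siTAZ2 and 75.4% with siTAZ3 (adjusted p = 0.191 and 0.0469). WWTR1 was at 76.5% with siYAP1 and 79.7% with siYAP2 (adjusted p = 0.14 and 0.132). The mean level of 7 hepatocyte markers stayed between 12.0 and 12.2 on the log2 scale on all 19 arrays. Fibroblast markers averaged 4.43 to 4.70 and endothelial markers 4.01 to 4.17, below the array median of 4.83, with 1 of 5 fibroblast markers, COL1A1, above it. The 4 measured leukocyte markers averaged 7.52 to 7.75: CD68 and LYZ were above the array median on every array and PTPRC and CD3E below it. The array labelled siTAZ2 replicate 3 stood apart, with a median correlation to the other arrays of 0.9866 against at least 0.9927 for each other array. The spread shared by all comparisons includes it, so leaving it out also moves the p-values of other groups, and values without it are given beside many of the results.

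CYP4F11 was the most strongly measured of the 7 genes. Its mean over all arrays lay 2.60 log2 units above the median of all genes, and it was above that median on 19 of 19 arrays. CYP4F3 was also above the median on all 19 arrays, by 0.62 on average. CYP4V2 was above it on 7 arrays, CYP4A11 on 5, CYP4F12 on 3, and CYP4F2 and CYP4A22 on 0. The files hold no detection call, so genes at or below the median are not shown to be above background, and their log2 differences may understate a change. Levels are log2 values of 1 probe set each, made by robust multi-array averaging (RMA), and are not compared between genes.

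**Figure D1:**
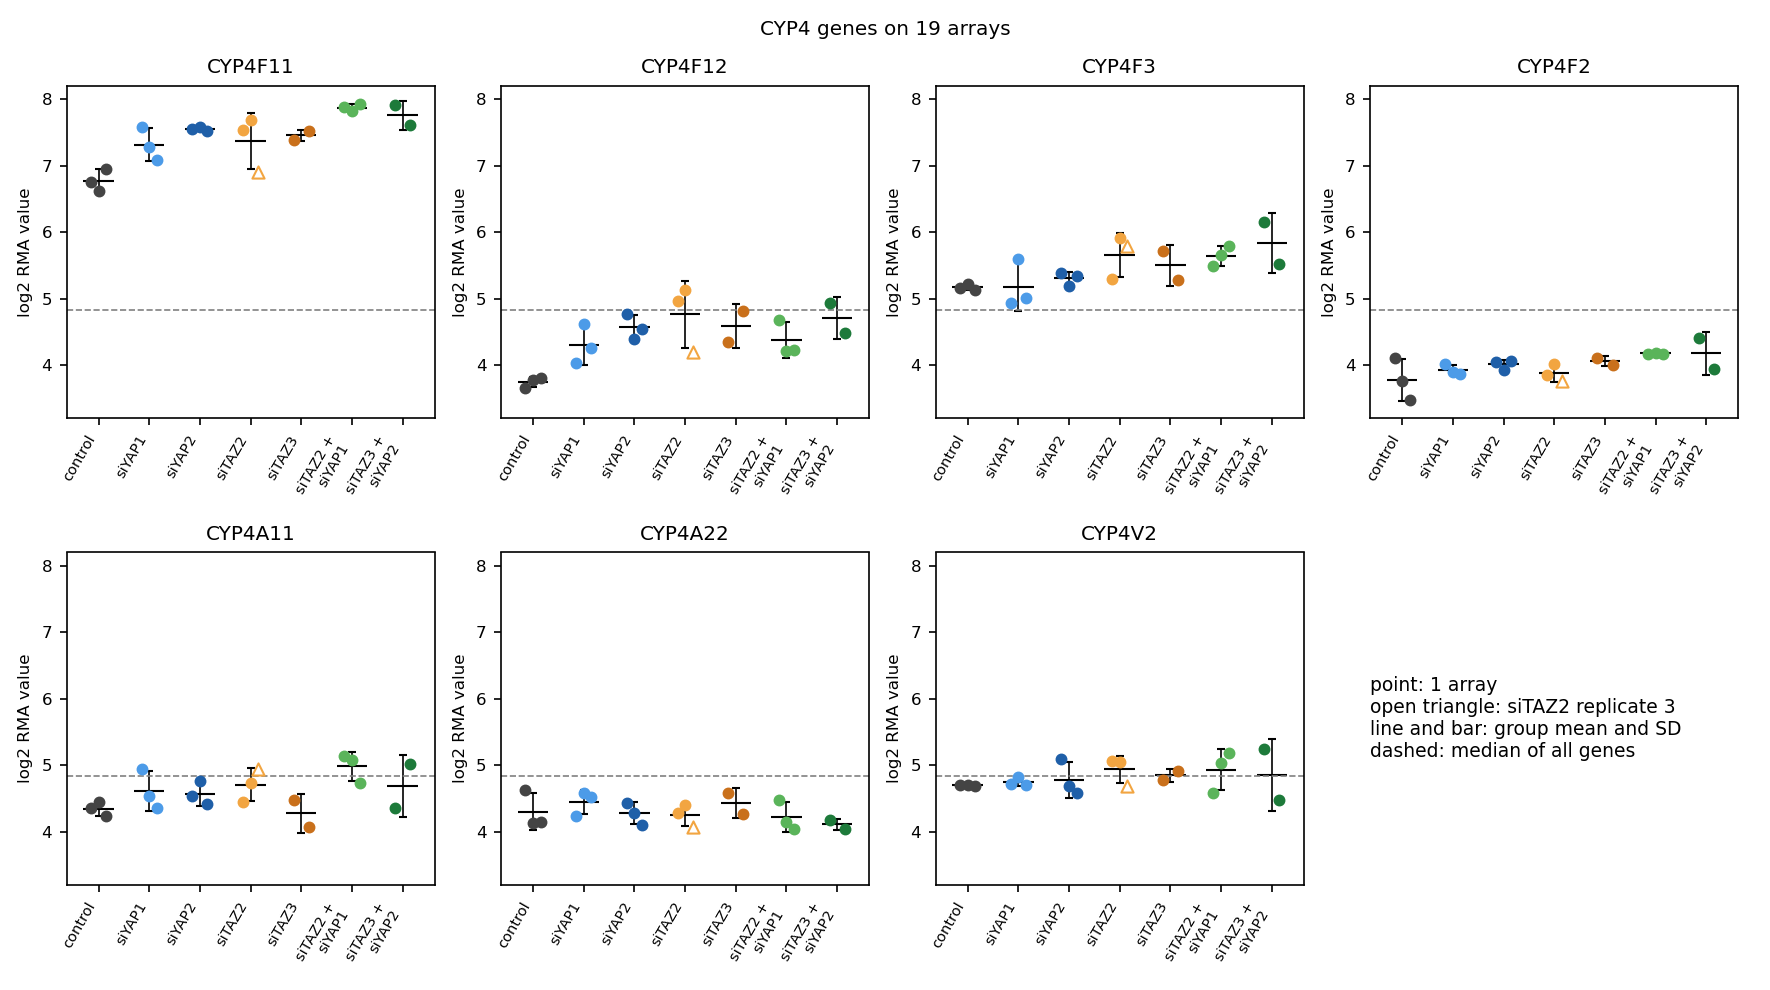
Log2 RMA value of each CYP4 gene (vertical axis) in each siRNA group (horizontal axis). Points are arrays, lines and bars are the group mean and SD, the open triangle is siTAZ2 replicate 3, and the dashed line is the median of all genes at 4.83. CYP4F11 sits above the line on every array and CYP4F2 and CYP4A22 below it on every array.

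CYP4F11 encodes an enzyme that hydroxylates long-chain 3-hydroxy fatty acids and vitamin K. It read 6.75, 6.61 and 6.96 in the control arrays. With siYAP1 it read 7.58, 7.29 and 7.08, and with siYAP2 7.56, 7.58 and 7.52. Both YAP groups lay wholly above the control arrays, and siYAP2 varied little. The siTAZ2 arrays read 7.54, 7.69 and 6.90, and the siTAZ3 arrays 7.39 and 7.52. Of these only the array that stood apart, siTAZ2 replicate 3, fell inside the control range. The siTAZ2_siYAP1 arrays read 7.88, 7.82 and 7.93, and the siTAZ3_siYAP2 arrays 7.91 and 7.61. Each pair lay above every array of its own single siRNAs, an order that was not counted over all genes.

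Group means of CYP4F11 ran from 6.77 ± 0.17 (SD, n = 3) in control through 7.32 ± 0.25 (SD, n = 3) with siYAP1, 7.38 ± 0.42 (SD, n = 3) with siTAZ2, 7.46 ± 0.086 (SD, n = 2) with siTAZ3 and 7.55 ± 0.031 (SD, n = 3) with siYAP2 to 7.76 ± 0.22 (SD, n = 2) with siTAZ3_siYAP2 and 7.87 ± 0.052 (SD, n = 3) with siTAZ2_siYAP1. Among neighbours in this order, only the step from control to siYAP1 (0.54) exceeded the within-group SD of 0.22. In the limma fit across all genes, CYP4F11 was 2.14-fold higher than control with siTAZ2_siYAP1 (log2 difference 1.10, SE 0.168, adjusted p = 0.00167). It was 1.98-fold higher with siTAZ3_siYAP2 (0.99, SE 0.187, adjusted p = 0.00754) and 1.71-fold higher with siYAP2 (0.78, SE 0.168, adjusted p = 0.0136). The remaining differences were 0.54 with siYAP1 (adjusted p = 0.212), 0.60 with siTAZ2 (adjusted p = 0.083) and 0.68 with siTAZ3 (adjusted p = 0.118), none of which passed 0.05. Without siTAZ2 replicate 3 the spread shrank and CYP4F11 passed in all 6 comparisons, with adjusted p from 2.55e-05 to 0.0202 and a siTAZ2 difference of 0.84 (1.79-fold). The call with siTAZ3_siYAP2 was lost without siTAZ3_siYAP2 replicate 1 (adjusted p = 0.102), and the call with siYAP2 was lost on leaving out control replicate 1 or 2 or siYAP2 replicate 1 or 2 (adjusted p up to 0.0781).

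CYP4F11 lies beside CYP4F2 in a CYP4F cluster on chromosome 19, and its promoters show how closely these genes are related. RefSeq (GRCh38.p14) gave promoter entries, from 250 bases before to 50 after a start, for 4 of the 7 genes: CYP4F2, CYP4F3, CYP4V2 and CYP4F11, the last with 2 starts. Entry 1 of CYP4F11 (chr19:15934818-15935117, minus strand) aligned with the CYP4F2 entry (chr19:15898025-15898324, minus strand) over 198 columns, of which 159 (80.3%) were identical. Entry 2 of CYP4F11 (chr19:15934480-15934779, minus strand) aligned with the CYP4F3 entry (chr19:15641062-15641361, plus strand) over 288 columns, of which 210 (72.9%) were identical. The entries are shown 5′ to 3′ as transcribed, with bases identical to the other member of the pair in capitals.
CYP4F11 entry 1: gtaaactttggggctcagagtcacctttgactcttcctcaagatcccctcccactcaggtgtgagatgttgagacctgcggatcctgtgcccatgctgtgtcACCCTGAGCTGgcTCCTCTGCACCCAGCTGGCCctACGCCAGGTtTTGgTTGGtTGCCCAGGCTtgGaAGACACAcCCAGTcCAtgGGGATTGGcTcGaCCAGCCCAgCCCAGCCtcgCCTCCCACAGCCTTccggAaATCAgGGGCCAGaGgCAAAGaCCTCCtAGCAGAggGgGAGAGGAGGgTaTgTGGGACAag
CYP4F2: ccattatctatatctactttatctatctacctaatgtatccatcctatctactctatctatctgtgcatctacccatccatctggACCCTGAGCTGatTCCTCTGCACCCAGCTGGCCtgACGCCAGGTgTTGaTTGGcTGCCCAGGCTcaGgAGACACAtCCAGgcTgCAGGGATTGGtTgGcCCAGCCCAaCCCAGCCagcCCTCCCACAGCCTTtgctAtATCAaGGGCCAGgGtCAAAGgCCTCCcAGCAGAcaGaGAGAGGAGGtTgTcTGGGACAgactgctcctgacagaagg
CYP4F11 entry 2: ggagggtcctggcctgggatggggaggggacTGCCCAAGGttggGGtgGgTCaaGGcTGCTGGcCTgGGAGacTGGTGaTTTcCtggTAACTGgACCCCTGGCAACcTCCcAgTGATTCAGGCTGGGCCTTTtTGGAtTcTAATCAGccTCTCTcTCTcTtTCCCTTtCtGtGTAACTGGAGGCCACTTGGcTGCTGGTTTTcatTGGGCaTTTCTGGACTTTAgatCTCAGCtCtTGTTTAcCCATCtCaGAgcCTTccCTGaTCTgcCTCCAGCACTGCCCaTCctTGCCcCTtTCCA
CYP4F3: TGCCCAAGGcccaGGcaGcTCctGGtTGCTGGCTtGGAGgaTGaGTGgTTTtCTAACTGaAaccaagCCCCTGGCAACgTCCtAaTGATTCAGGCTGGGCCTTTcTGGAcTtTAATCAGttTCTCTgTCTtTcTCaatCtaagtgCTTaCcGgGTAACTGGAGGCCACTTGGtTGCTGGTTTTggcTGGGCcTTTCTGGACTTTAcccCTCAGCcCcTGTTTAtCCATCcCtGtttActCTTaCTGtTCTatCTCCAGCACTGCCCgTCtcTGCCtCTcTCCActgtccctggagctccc
Each CYP4F11 entry thus aligned at length with the entry of a different gene. Other stretches of CYP4F2 and CYP4F3 were not aligned, and CYP4F12 has no entry. Which gene each start resembles most is therefore not shown. GGAATG, the core of the TEAD motif, was searched on both strands and was present in 14.0% of 35116 promoter entries and in none of the 5 entries of these genes. AGGTCA, the half-site of nuclear receptors such as PPAR-alpha, was present in 13.8% of entries and, among these genes, only in CYP4V2, once, on the reverse strand at position -123 from the start. The direct repeat of this half-site with 1 base between was present in 0.0228% of entries and in none of these. A match is a description of letters, and windows this short leave enhancers out.

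CYP4F12, which lies beside CYP4F3 and whose enzyme hydroxylates arachidonic acid and some antihistamines, read 3.66, 3.78 and 3.80 in the control arrays. It read 4.03, 4.62 and 4.26 with siYAP1 and 4.77, 4.40 and 4.55 with siYAP2. These 6 arrays were all above the 3 control arrays. With siTAZ2 it read 4.96, 5.14 and 4.19, with siTAZ3 4.35 and 4.82. The paired groups read 4.68, 4.21 and 4.23 for siTAZ2_siYAP1 and 4.93 and 4.48 for siTAZ3_siYAP2. No siRNA array of the 16 overlapped the control arrays, and the siRNA groups overlapped one another.

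The CYP4F12 control mean of 3.75 ± 0.076 (SD, n = 3) lay 1.08 below the array median. The siTAZ2 mean of 4.76 ± 0.50 (SD, n = 3) was the highest, at 2.02-fold (log2 difference 1.02, SE 0.226, adjusted p = 0.0262 in limma), and this was the only comparison in which CYP4F12 passed. The others ranged from 0.56 with siYAP1 (adjusted p = 0.439) and 0.63 with siTAZ2_siYAP1 (adjusted p = 0.232) to 0.96 with siTAZ3_siYAP2 (adjusted p = 0.0612), with 0.83 for siYAP2 (adjusted p = 0.0592) and 0.84 for siTAZ3 (adjusted p = 0.173). Without siTAZ2 replicate 3, CYP4F12 passed in 5 of 6 comparisons, all but siYAP1 (adjusted p = 0.134), and the siTAZ2 difference was 1.30 (2.46-fold, adjusted p = 0.00077). The siTAZ2 call was lost when any 1 control array, siTAZ2 replicate 1 or siTAZ2 replicate 2 was left out, or when only the groups compared were fitted (adjusted p up to 0.248). CYP4F12 stayed near or below the array median, where folds may be understated, which was not tested.

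CYP4F3 gives, through alternative splicing, a form that inactivates leukotriene B4 in neutrophils and a liver form that prefers arachidonic acid. The probe set does not separate the forms. It read 5.16, 5.22 and 5.13 in control, 4.93, 5.60 and 5.01 with siYAP1 and 5.39, 5.20 and 5.33 with siYAP2, so that both YAP groups overlapped control. It read 5.29, 5.91 and 5.79 with siTAZ2, 5.72 and 5.28 with siTAZ3, 5.49, 5.66 and 5.79 with siTAZ2_siYAP1 and 6.16 and 5.51 with siTAZ3_siYAP2. All 10 arrays that carried a TAZ siRNA thus lay above the control arrays, and all 10 are from the later deposit. The control arrays spanned only 5.13 to 5.22, and the share of all genes with this order was not counted. The log2 differences from control were 0.01 and 0.13 with siYAP1 and siYAP2, and 0.49, 0.33, 0.48 and 0.67 with siTAZ2, siTAZ3, siTAZ2_siYAP1 and siTAZ3_siYAP2. None passed in limma, with adjusted p of 0.294, 0.814, 0.347 and 0.174 in the last 4, and 3 of 6 had an unadjusted p under 0.05. The 95% interval farthest from 0, for siTAZ3_siYAP2, ran from 0.19 to 1.14. The siTAZ2 difference passed with array weights (0.62, adjusted p = 0.0171), and the siTAZ2_siYAP1 difference when only the groups compared were fitted (adjusted p = 0.0176).

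CYP4F2, a main omega-hydroxylase of arachidonic acid in human liver and kidney and the enzyme that starts the breakdown of vitamins E and K, was below the array median on all arrays. It read 4.10, 3.76 and 3.47 in control, a wider spread (SD 0.32) than in 5 of the 6 siRNA groups. The siTAZ2_siYAP1 arrays read 4.17, 4.18 and 4.17, above all 3 controls, and siTAZ3_siYAP2 read 4.41 and 3.94. The single siRNA groups spanned 3.77 to 4.11 and all reached into the control range. Differences from control were 0.40 in both paired groups (adjusted p = 0.183 and 0.258) and 0.10 to 0.28 with single siRNAs. None passed in limma, and 2 of 6 had an unadjusted p under 0.05. Both paired differences passed without control replicate 1, at 0.56 in each (adjusted p = 0.0367 and 0.0476), and that of siTAZ2_siYAP1 also passed with array weights (adjusted p = 0.045).

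CYP4A11, the other main arachidonate omega-hydroxylase and a classic fatty acid omega-hydroxylase of liver and kidney, read 4.35, 4.44 and 4.24 in control. It read 4.94, 4.53 and 4.36 with siYAP1, 4.53, 4.76 and 4.41 with siYAP2, 4.45, 4.73 and 4.94 with siTAZ2 and 4.48 and 4.06 with siTAZ3. The last group straddled the controls, and its difference was -0.07. The siTAZ2_siYAP1 arrays read 5.14, 5.07 and 4.74, the only group of this gene with a mean above the array median, while siTAZ3_siYAP2 read 4.35 and 5.01. The siTAZ2_siYAP1 difference of 0.64 (1.56-fold, SE 0.190, adjusted p = 0.111) did not pass, and the paired groups differed by -0.30 (adjusted p = 0.76). The siTAZ2_siYAP1 difference passed when only the groups compared were fitted (adjusted p = 0.0188) and with array weights (adjusted p = 0.00842).

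CYP4A22, a near copy of CYP4A11 that is also on chromosome 1, stayed between 4.04 and 4.63 on all arrays. None of the 16 siRNA arrays exceeded the highest control array, and the differences ran from -0.19 with siTAZ3_siYAP2 to 0.15 with siYAP1. CYP4V2, on chromosome 4, hydroxylates medium-chain fatty acids and is the gene mutated in Bietti crystalline dystrophy, an eye disease. Its control arrays were almost equal, at 4.70, 4.70 and 4.69 (SD 0.0023), whereas siTAZ3_siYAP2 read 5.24 and 4.47. Its siRNA arrays spanned 4.47 to 5.24, on both sides of control, and its 6 differences lay between 0.05 and 0.24. Neither gene passed in limma in any comparison with control, nor had an unadjusted p under 0.05. The 95% intervals of the 6 differences reached from -0.56 to 0.49 for CYP4A22 and from -0.34 to 0.63 for CYP4V2. The CYP4V2 difference with siTAZ2 was, without siTAZ2 replicate 3, 0.36 in place of 0.24.

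**Figure D2:**
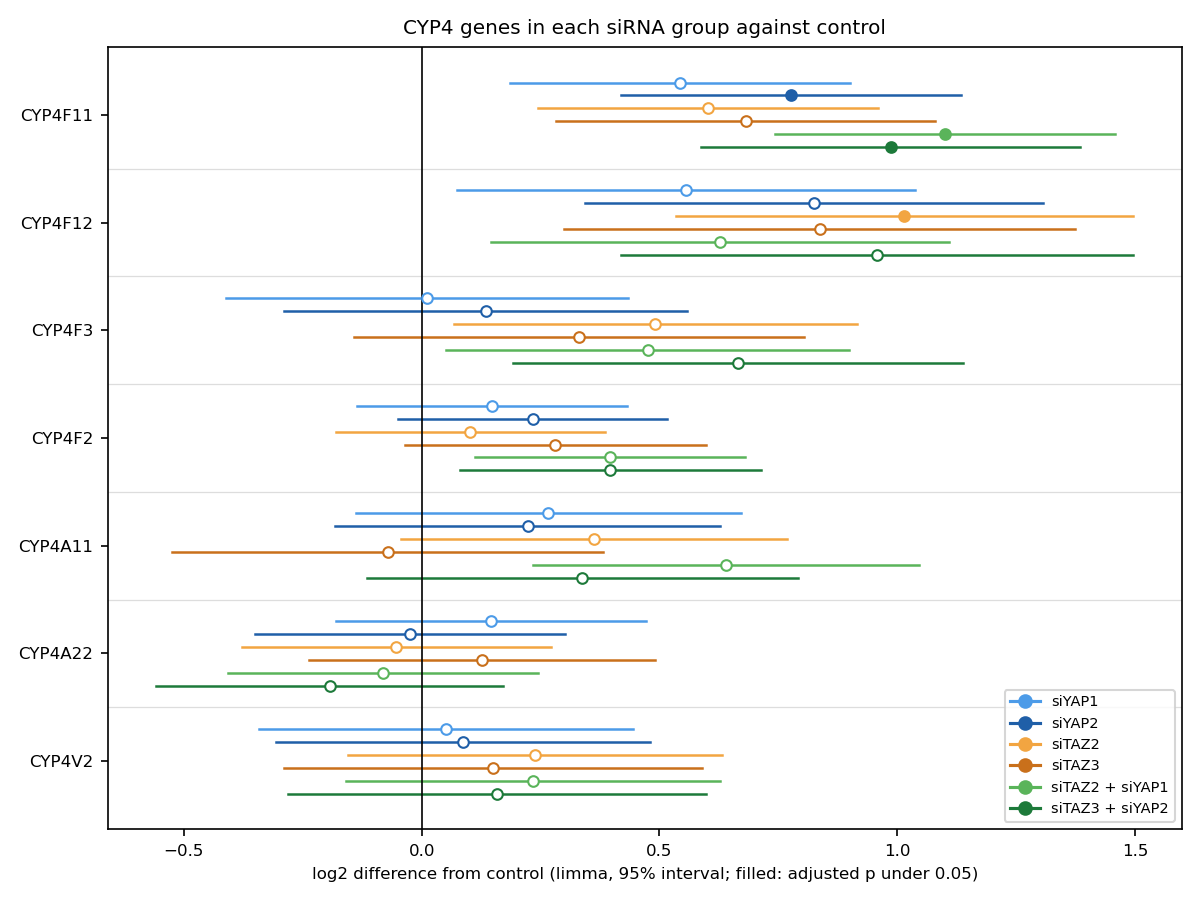
Log2 difference from control (horizontal axis) of the 7 CYP4 genes (vertical axis) in 6 siRNA groups, as points with 95% intervals from limma. Filled points passed an adjusted p of 0.05. Filled points are seen for CYP4F11 with siYAP2 and both pairs and for CYP4F12 with siTAZ2, and the differences of CYP4A22 lie around 0.

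Over the 7 genes and 6 comparisons with control, 4 of 42 differences passed, all higher: 3 of CYP4F11 and 1 of CYP4F12. Of 7 members, 0 passed with siYAP1 (2 at an unadjusted p under 0.05), where 0.880% of all genes passed, 1 with siYAP2 (all genes 3.72%), 1 with siTAZ2 (all genes 2.37%) and 0 with siTAZ3 (2 unadjusted, all genes 1.16%). The siTAZ2_siYAP1 group had 1 (all genes 2.44%), as did the siTAZ3_siYAP2 group (all genes 2.66%). The median difference of the 7 genes was 0.15, 0.22, 0.36, 0.28, 0.48 and 0.40 in that order, beside medians of all genes of 0.00 or 0.01. Without siTAZ2 replicate 3, 11 of 42 passed, all of them CYP4F11 or CYP4F12, and the share of all genes that passed rose to 2.47%, 7.08%, 5.10%, 3.55%, 6.05% and 5.70%. CYP4F12 was above the highest control on 16 of 16 siRNA arrays and CYP4F11 on 15. Of all genes, 425 (1.66%) were so on at least 15. The count was 13 for CYP4F3, 12 for CYP4A11, 11 for CYP4V2, 5 for CYP4F2 and 0 for CYP4A22. These 6 comparisons share the control arrays.

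The siRNA groups were next compared with one another, which asks whether a second siRNA to the same target, or knockdown of the second co-activator, changed the level. None of 49 member differences passed in limma, and 5 had an unadjusted p under 0.05. Between the siRNAs of a target, CYP4F11 differed by 0.23 for siYAP2 against siYAP1 (95% interval -0.12 to 0.59, adjusted p = 0.63, all genes 4.83% passed) and by 0.08 for siTAZ3 against siTAZ2 (-0.32 to 0.48, adjusted p = 0.974, all genes 0.813%). Without siTAZ2 replicate 3 the latter was -0.16 (adjusted p = 0.791). The pairs differed by -0.11 (siTAZ3_siYAP2 minus siTAZ2_siYAP1, -0.51 to 0.28, adjusted p = 0.967, all genes 2.48%). The intervals thus allow differences of about the size of the single siRNA effects.

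Adding siYAP1 to siTAZ2 went with a CYP4F11 difference of 0.50 (95% interval 0.14 to 0.86, adjusted p = 0.418, where 0.219% of all genes passed), and 0.26 without siTAZ2 replicate 3 (adjusted p = 0.732). Adding siYAP2 to siTAZ3 went with 0.30 (-0.13 to 0.74, adjusted p = 0.902, all genes 0.563%). Both differences are within the later deposit. Adding siTAZ2 to siYAP1 went with 0.56 (0.20 to 0.91, adjusted p = 0.108, all genes 2.62%), and this one passed without siTAZ2 replicate 3 (adjusted p = 0.00731) and with array weights (0.63, adjusted p = 0.00349). Adding siTAZ3 to siYAP2 went with 0.21 (-0.19 to 0.61, adjusted p = 0.989, all genes 1.12%). Both differences with an added TAZ siRNA set the later deposit against the earlier one, where siRNA and deposit cannot be told apart. The arrays of each pair lay above those of both its single siRNAs in all 4 of these contrasts, although none of the differences passed with all 19 arrays weighted equally. The share of all genes with the same order was not counted, so nothing is read from it.

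CYP4F12 did not show this order: the difference of siTAZ2_siYAP1 from siTAZ2 was -0.39 (95% interval -0.87 to 0.09, adjusted p = 0.646) and that of siTAZ3_siYAP2 from siTAZ3 was 0.12 (adjusted p = 0.999). To test additivity, the siYAP1 effect without siTAZ2 was subtracted from its effect with siTAZ2, which gave -0.94 for CYP4F12 (SE 0.319, adjusted p = 0.438, where 0.109% of all genes passed). For siYAP2 with and without siTAZ3 it gave -0.70 (SE 0.357, adjusted p = 1, all genes 0.0821%). For CYP4F11 these differences were -0.04 and -0.47 (adjusted p = 0.97 and 1), and the first was -0.28 without siTAZ2 replicate 3 (adjusted p = 0.716). Without siTAZ2 replicate 3 the first CYP4F12 value was -1.23 (adjusted p = 0.0962), still not past 0.05. With array weights, which gave that array 0.128 against at least 0.506 for each other array, it was -1.28 and passed (adjusted p = 0.0213), as did the difference of siTAZ2_siYAP1 from siTAZ2, at -0.73 (adjusted p = 0.0321). Both calls were made with array weights and in no other alternative run. With all 19 arrays weighted equally, YAP1 itself gave 0.66 and 1.02 in the 2 tests of additivity (adjusted p = 0.0448 and 0.00526 in limma). The YAP siRNAs thus lowered YAP1 less with a TAZ siRNA than without.

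The CYP4F genes were set beside their neighbours, to see whether the surrounding stretch of chromosome 19 moved with them. In RefSeq order, 14 coding genes run from PGLYRP2 to TPM4, of which 13 were measured and 9 are not among the 7 genes. None of these 9 passed in limma in any of the 6 comparisons with control, 1 of 54 places had an unadjusted p under 0.05, and their differences lay between -0.26 (TPM4 with siYAP2) and 0.17 (PGLYRP2 with siTAZ2_siYAP1). OR10H1, OR10H2, OR10H3 and OR10H5, olfactory receptor genes that lie between CYP4F12 and CYP4F2, averaged 3.54 to 4.05, below the array median, where a change may not be seen. CYP4F8 and CYP4F22, the cluster's other family members, were also below the median on every array and did not pass. PGLYRP2 and OR10H4 averaged 4.49 and 3.91, below it too, so that of the 9 only TPM4, at 8.16, averaged above the median. The dim neighbours cannot show whether the stretch moved. Outside the 7 genes, 0 of 5 coding CYP4 genes passed in limma in any comparison with control, 0 of 30 places had an unadjusted p under 0.05, and the largest difference was that of CYP4Z1 with siTAZ3_siYAP2 (-0.36, adjusted p = 0.774).

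**Figure D3:**
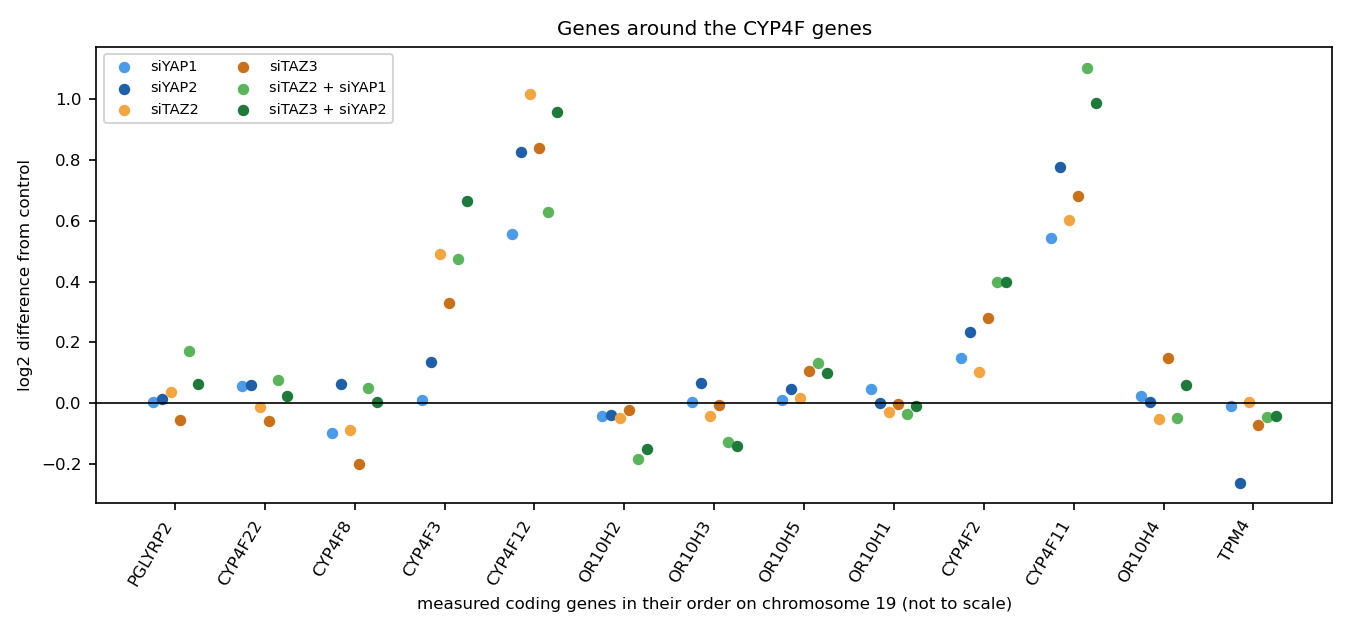
Log2 difference from control (vertical axis) of 13 measured coding genes in their order on chromosome 19 (horizontal axis, not to scale), 1 point per siRNA group. CYP4F3, CYP4F12, CYP4F2 and CYP4F11 reach up to 0.67, 1.02, 0.40 and 1.10, and the other 9 stay between -0.26 and 0.17. Of these 9 only TPM4 averages above the median of all genes.

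Among the 7 genes, CYP4F11 followed CYP4F2 (Pearson r 0.68, Spearman rho 0.67) and CYP4F12 (r 0.66, rho 0.486) most closely by r over the 19 arrays. By rho, CYP4A11 (0.511) and CYP4F3 (0.493) came before CYP4F12. Within groups r was 0.28 for CYP4F2, 0.55 for CYP4F12 and 0.47 for CYP4V2. CYP4A11 and CYP4A22, near copies, did not follow each other (r -0.22, rho -0.19). The arrays share groups, a deposit and the normalization, so these values describe the arrays. Near-identical paralogs can also bind each other's probes, which was not tested.

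CYP4F11, the only one of the 7 more than 1 log2 unit above the array median on average, was then used to find the named genes most like it over the 19 arrays. These were ELOVL6, which elongates saturated and monounsaturated fatty acids (r 0.90, rho 0.85), MOGAT2, an acyltransferase of triglyceride synthesis (r 0.90, rho 0.87), and FAXDC2, a member of the fatty acid hydroxylase superfamily (r 0.88, rho 0.86). Without the 2 arrays farthest from the CYP4F11 median, r was 0.86, 0.90 and 0.87. Within the 9 arrays of the earlier deposit it was 0.87, 0.88 and 0.91, and within the 10 of the later deposit 0.86, 0.92 and 0.89. After group means were removed it was 0.61, 0.74 and 0.91, and with the siTAZ2 group also left out 0.21, 0.15 and 0.79, so that within groups the likeness of ELOVL6 and MOGAT2 rested on the siTAZ2 arrays. On siTAZ2 replicate 3 MOGAT2 read 7.83 and FAXDC2 6.31, below all control arrays, and ELOVL6 read 9.31. ELOVL6, MOGAT2 and FAXDC2 were picked for likeness to CYP4F11 on these same arrays, and the CYP4F11 mean was lowest in control. Their subset correlations and differences from control follow in part from that choice and are no separate support for the likeness. Against control, ELOVL6 passed in 4 comparisons, with differences of 0.58 (siYAP2), 0.40 (siTAZ2), 0.67 (siTAZ2_siYAP1) and 0.62 (siTAZ3_siYAP2). MOGAT2 passed in 2, with siTAZ2_siYAP1 (0.86, adjusted p = 0.0401) and siTAZ3_siYAP2 (0.97, adjusted p = 0.0371), and FAXDC2 in 0, with 2 at an unadjusted p under 0.05. With siTAZ2 replicate 3 left out, MOGAT2 passed in all 6 comparisons, with 0.77 in place of 0.39 for siTAZ2, and FAXDC2 in 4, with 1.09 in place of 0.45.

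**Figure D4:**
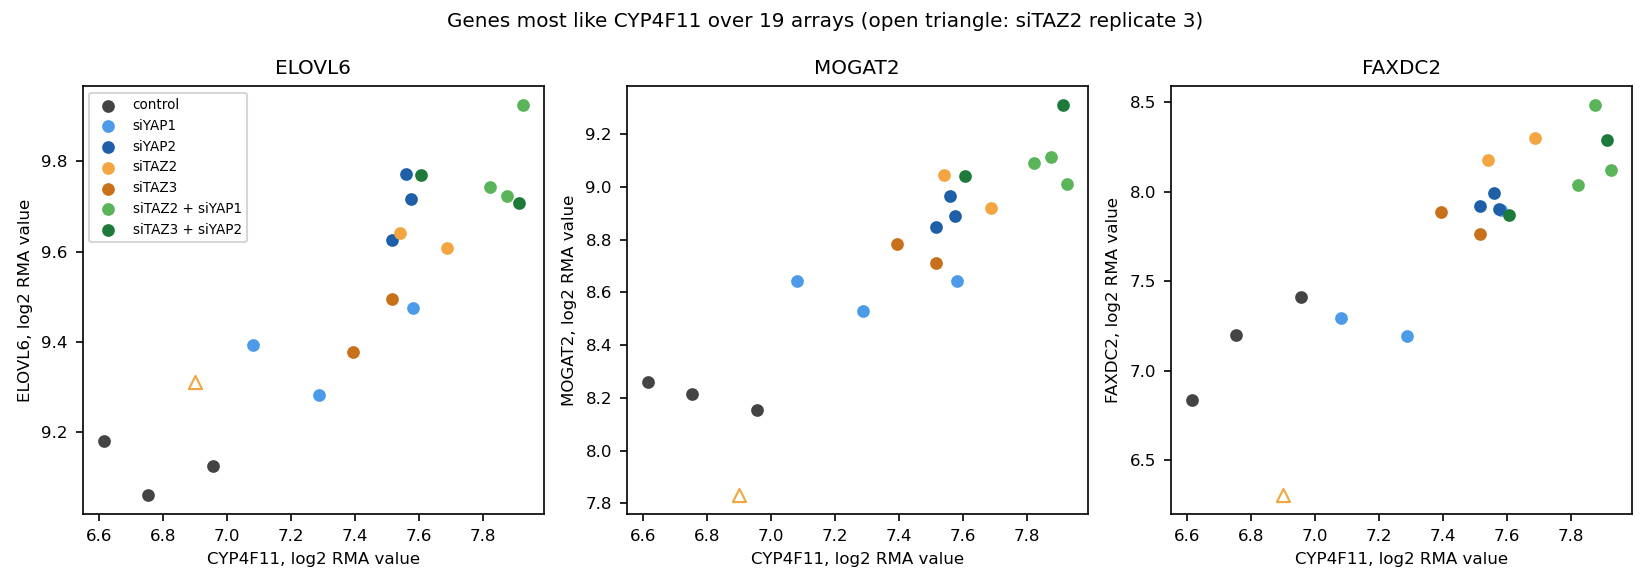
Log2 RMA values of ELOVL6, MOGAT2 and FAXDC2 (vertical axes) against CYP4F11 (horizontal axis) on 19 arrays, coloured by siRNA group. Control arrays lie at the lower left and paired siRNA arrays at the upper right, and the open triangle, siTAZ2 replicate 3, lies apart from the other siTAZ2 arrays.

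The steps around omega-hydroxylation were read from 8 lists holding 110 measured genes. Over the 6 comparisons with control, 34 of 660 places passed (5.15%), 27 higher and 7 lower, beside 3384 of 153474 (2.20%) over all genes. The lists were drawn up with earlier results of these arrays known, so nothing is read from the difference in share. In the enzymes that act on the hydroxylated product, and in the peroxisomal breakdown of dicarboxylic acids, 1, 1, 2, 2, 3 and 2 of 17 genes were higher with siYAP1, siYAP2, siTAZ2, siTAZ3, siTAZ2_siYAP1 and siTAZ3_siYAP2, and 1, ABCD3 with siTAZ3, was lower. CROT, the peroxisomal acyltransferase that hands shortened chains to carnitine, passed in 5 comparisons with log2 differences of 0.80 to 1.16, and was 0.40 with siTAZ3 (adjusted p = 0.0659, or 0.0278 without siTAZ2 replicate 3). ADH6, an alcohol dehydrogenase, passed in the 4 groups with a TAZ siRNA (0.49, 0.52, 0.55 and 0.61), all of the later deposit, and was 0.00 with siYAP1 and 0.24 with siYAP2. EHHADH, a peroxisomal beta-oxidation enzyme, passed with siTAZ3 (0.38) and siTAZ2_siYAP1 (0.30). The list's median difference lay between -0.05 and 0.15.

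None of 4 measured electron donors and partners of P450 enzymes passed in limma, and 1 of 24 places had an unadjusted p under 0.05. POR, the reductase that supplies electrons to these enzymes, differed by at most 0.23 (adjusted p = 0.708), and CYB5R3 by -0.39 with siTAZ2 (adjusted p = 0.561), which was 0.05 without siTAZ2 replicate 3 (adjusted p = 0.856). Of 28 other P450 genes, at most 1 was higher in a comparison. CYP2U1, another fatty acid hydroxylase, passed with siYAP2 (0.36), siTAZ3 (0.65) and siTAZ3_siYAP2 (0.60). CYP51A1, a demethylase of cholesterol synthesis, was higher with siTAZ2_siYAP1 (0.50, adjusted p = 0.0174). CYP24A1, which degrades vitamin D, was lower with that pair (-1.75, adjusted p = 0.0206), and no other P450 gene of the list was lower in any comparison with control. When siTAZ2 replicate 3 was left out, CYP24A1 also passed with siTAZ2 (-1.29), siYAP2 (-0.67) and, in the other direction, siTAZ3 (0.50). CYP1A1 gave 0.66 with siYAP2 (adjusted p = 0.0794), which passed without that array (adjusted p = 0.0059).

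Of 16 genes of arachidonate and leukotriene handling, 1 passed with siYAP2 and 1 with each pair, all higher. EPHX2, the soluble epoxide hydrolase, was 0.46 higher with siTAZ2_siYAP1 (adjusted p = 0.0296), its only call against control. The calls with siYAP2 and siTAZ3_siYAP2 fell on other genes of the list, which are not named here. GPR75, a receptor for omega-hydroxylated arachidonic acid, did not pass (-0.41 with siTAZ3_siYAP2, adjusted p = 0.636). Of 5 vitamin K and E genes, 1 passed, NQO1 with siTAZ2_siYAP1 (0.18, adjusted p = 0.0437). TTPA, the vitamin E transfer protein, gave 0.61 with siTAZ2 (adjusted p = 0.296), and 1.00 without siTAZ2 replicate 3 (adjusted p = 0.000907). VKORC1, the vitamin K epoxide reductase, gave -0.21 with siTAZ2 (adjusted p = 0.698), and 0.07 without that array (adjusted p = 0.845).

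Among 16 fatty acid sensors and regulators, PPARGC1A, a co-activator of PPAR-alpha, was higher with both pairs (0.63 and 0.61, adjusted p = 0.0116 and 0.0261). NR0B2, a repressor of nuclear receptors, was higher with siTAZ3_siYAP2 (0.59, adjusted p = 0.0268), and SREBF2, a regulator of cholesterol synthesis, lower with siYAP2 (-0.62, adjusted p = 0.000576). No other gene of this list passed in a comparison with control. CREB3L3, a liver transcription factor of fasting, gave 1.09 with siTAZ2_siYAP1 but did not pass (SE 0.404, adjusted p = 0.251), whereas without siTAZ2 replicate 3 it passed in 4 comparisons, with adjusted p of 5.92e-05 for that pair. Of 19 PPAR-alpha target genes, FABP1, the liver fatty acid binding protein, was higher with siTAZ2 (0.51) and both pairs (0.51 and 0.46). TXNIP, an inhibitor of thioredoxin, was lower with siYAP1 (-0.68) and siTAZ2_siYAP1 (-0.48). With that pair ACSL1 (0.34) and ACAA2 (0.24), enzymes of fatty acid activation and mitochondrial oxidation, were also higher, and VNN1, a pantetheinase, was lower (-0.67). PLIN2, a lipid droplet coat protein, was lower with siYAP2 (-0.37). These 4 genes, ABCD3, CYP51A1, NQO1, NR0B2 and SREBF2 are named because they passed, after their values were seen. Without siTAZ2 replicate 3, 70 of the 660 places passed (10.6%, all genes 4.99%), and without control replicate 1, 19 (2.88%, all genes 1.28%).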

How the data were processed

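Biotin-labelled cRNA of HepG2 cells was measured on Affymetrix arrays, per the labels' protocols. The deposited values are log2 values that the authors made with RMA, per the submitters' processing notes, and for its version and the genome build the sources used here give nothing. Every array holds an identical set of values (3.17 to 13.78) in a different order, which is what joint quantile normalization leaves, so a shift of the whole transcriptome would not be seen. The number of arrays limits the precision. Of 25582 probe sets, 24244 were given 1 gene symbol each and 1338 none. For 24195 the symbol was that of RefSeq for the same Entrez gene identifier, and otherwise that of the platform annotation. Of probe sets with the same symbol the brighter was kept, which left 25579 genes.

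Groups and replicate numbers came from the sample titles. limma 3.58.1 in R 4.3.3 fitted a mean per group over all 19 arrays (lmFit, contrasts.fit, eBayes), with dim genes included. P-values were adjusted by Benjamini-Hochberg over the 25579 genes of each comparison, at a threshold of 0.05, and the fit was tested on simulated data. SE is the moderated standard error of limma, and SD the spread within a group. The 7 genes, the gene lists and the comparisons were chosen with earlier results of these data known. Besides the 7 genes and the targets, the text names list genes that passed in 2 or more of 6 comparisons (at most 4 a list, by largest change), otherwise up to 2 with the largest change, and the 3 genes most correlated with CYP4F11, long non-coding RNA and uncharacterised symbols aside. Other genes were named where a count of 5 or fewer fell on them, except in the arachidonate and leukotriene list. The tests of additivity, fits within 1 deposit and the subsets of the likeness search were added after the data were seen. Alternatives tried were a prior spread that follows intensity, a filter on the dimmest 30% of genes, arrays centred on their medians, a fit of only the groups compared, a block for the replicate number, array weights, and each array left out once. Listed genes without a matching probe set were not analysed here.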

Additional observations from a re-analysis of the deposited data

How the results depend on the processing

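No difference of the 7 genes that passed changed sign under any alternative run. The count of member differences from control that passed was 4. It was 6 with an intensity trend, 6 without the dimmest 30% of genes, 4 with centred arrays and 4 with the replicate block, but 10 when only the groups compared were fitted and 13 with array weights, and it ranged from 2 (without control replicate 2) to 11 (without siTAZ2 replicate 3) when 1 array was left out. The count between siRNA groups was 0. It was 2 with array weights and 0 to 1 when 1 array was left out, and 0 with the replicate block. For the pathway genes the count was 34, against 87 with array weights, 32 with the replicate block, and 19 (without control replicate 1) to 70 (without siTAZ2 replicate 3) when 1 array was left out.

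The call of CYP4F11 with siTAZ2_siYAP1 was kept in 25 of 25 alternatives (adjusted p 6.25e-06 to 0.0132), that with siTAZ3_siYAP2 in 24 of 25, that with siYAP2 in 22 of 26, and that of CYP4F12 with siTAZ2 in 19 of 25. When only the control and YAP arrays of the earlier deposit were fitted, CYP4F11 and CYP4F12 both passed with siYAP2 (adjusted p = 0.00505 and 0.00776) and CYP4F11 did not with siYAP1 (adjusted p = 0.0718). Counts over all genes moved more: with siTAZ2 against control 606 genes passed, from 2 when only the groups compared were fitted to 2382 with array weights. With siYAP1 the count was 225 (126 to 632), with siYAP2 952 (612 to 2374), with siTAZ3 296 (83 to 1053), with siTAZ2_siYAP1 624 (314 to 1943) and with siTAZ3_siYAP2 681 (313 to 1458). Same-numbered arrays of different groups shared little of their deviation from group means (15 of 52 pairs with r over 0.1, median 0.027). On average 10 of 19 arrays deviated most like arrays of their own number. These values do not settle whether the numbers pair the samples. The replicate block changed no call of the 7 genes. Fewer arrays enter a fit of only the groups compared or one with an array left out, and the cause of the other changes was not tested.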
